A study of Homo sapiens with 10 samples.

Results

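The genes described here are 41 genes that serve DNA synthesis in S phase, directly or indirectly, without the MCM helicase subunits and some other replication genes. They are part of 20033 protein-coding genes with a position on chromosomes 1-22, X and Y. The 41 come from a list written by function, with earlier results of these data known, and all 41 matched a gene symbol. They fall into 8 functional subgroups: 8 genes of origin recognition and licensing, 5 of helicase activation, 6 of the sliding clamp and its loader, 9 of the polymerases and primase, 5 of single-strand binding and flap ligation, 4 of nucleotide supply, 2 of maintenance DNA methylation and 2 of S phase entry.

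The data are chromatin immunoprecipitation sequencing (ChIP-seq) peak lists from 22RV1, an established human prostate cancer cell line grown in serum. The labels name 10 samples with 1 per group, of which 6 are immunoprecipitated libraries and 4 are IgG libraries that were not analysed here. Cells of the first pair received a control siRNA or an siRNA against RB1. The second pair carried an empty vector, EV(245-255), or the plasmid HA-RB(245-255), and the third an empty vector, EV(RBN), or the plasmid HA-RBN, where HA is an epitope tag. All were transfected and fixed with 1% formaldehyde for 10 minutes. The antibody is not named in the labels; the title of the series names TRIM24, a co-regulator that reads histone marks. They also do not say whether RB(245-255) is a fragment or an altered full-length protein, and the design text writes its residue numbers differently from the titles. The genotype field of the HA-RB(245-255) library calls it a control, so its title was followed. Below, "library order" means control siRNA, RB1 siRNA, EV(245-255), HA-RB(245-255), EV(RBN), HA-RBN.

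A replication origin is marked by the origin recognition complex (ORC), to which CDC6 and CDT1 bring the helicase. In S phase CDC45 and the GINS complex switch the helicase on, primase and polymerase alpha lay down primers, and RFC loads the ring-shaped clamp PCNA that holds polymerases delta and epsilon on DNA. Many genes of this machinery are textbook targets of E2F transcription factors, which the product of RB1 restrains, and they are most active as cells enter S phase.

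The 250 bases before the annotated start of 5 members are shown. LIG1 and PRIM1 had counting intervals above 0 in the RBN pair. PCNA and ORC6 led their subgroups wherever they were listed, and CDC6 was listed in every library. The summits need not lie in these bases. All PRIM1 summits lay 32 to 171 bp after the start, and some summits of PCNA, CDC6 and ORC6 also fell outside. The sequences are RefSeq GRCh38.p14, 5′ to 3′ on the gene's own strand. LIG1 is on chr19:48170345-48170594 (minus strand), PRIM1 on chr12:56752324-56752573 (minus), PCNA on chr20:5126623-5126872 (minus), CDC6 on chr17:40287629-40287878 (plus) and ORC6 on chr16:46689409-46689658 (plus). Capitals mark E2F-type letters (GCGGGAA or GCGCGAA) and CCAAT boxes (CCAAT), each on either strand. In PRIM1 the motifs overlap.
LIG1: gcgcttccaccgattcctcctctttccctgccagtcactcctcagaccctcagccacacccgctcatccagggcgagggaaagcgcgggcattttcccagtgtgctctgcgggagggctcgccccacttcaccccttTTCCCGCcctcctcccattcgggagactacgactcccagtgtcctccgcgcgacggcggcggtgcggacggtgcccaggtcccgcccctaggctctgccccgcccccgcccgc
PRIM1: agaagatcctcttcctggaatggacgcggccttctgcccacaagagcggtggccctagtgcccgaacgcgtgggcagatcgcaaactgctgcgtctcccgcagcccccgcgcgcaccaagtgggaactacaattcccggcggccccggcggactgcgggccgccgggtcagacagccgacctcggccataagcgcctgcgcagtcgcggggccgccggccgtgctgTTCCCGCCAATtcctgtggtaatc
PCNA: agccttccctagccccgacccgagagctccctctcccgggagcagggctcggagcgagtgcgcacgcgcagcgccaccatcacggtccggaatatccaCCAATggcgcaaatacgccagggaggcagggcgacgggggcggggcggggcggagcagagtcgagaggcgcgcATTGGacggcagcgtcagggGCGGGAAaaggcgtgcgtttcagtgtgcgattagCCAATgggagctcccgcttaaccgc
CDC6: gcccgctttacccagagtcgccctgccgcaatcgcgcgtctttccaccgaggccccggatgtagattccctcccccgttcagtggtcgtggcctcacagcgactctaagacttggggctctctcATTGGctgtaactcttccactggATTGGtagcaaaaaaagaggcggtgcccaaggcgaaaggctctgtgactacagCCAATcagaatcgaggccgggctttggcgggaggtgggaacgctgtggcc
ORC6: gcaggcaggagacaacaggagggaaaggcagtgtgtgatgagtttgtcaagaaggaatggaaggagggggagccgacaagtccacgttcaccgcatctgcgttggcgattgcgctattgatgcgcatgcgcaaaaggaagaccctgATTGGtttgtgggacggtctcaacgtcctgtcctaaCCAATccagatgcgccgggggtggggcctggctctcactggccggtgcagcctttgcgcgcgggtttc

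Searched in the whole 300-base promoters (250 bases before to 50 after the start), E2F-type letters stood in 19 of the 37 members with a promoter sequence (51.4%), against 11.4% of 15841 promoters of the same length. CCAAT stood in 21 of 37 (56.8%) against 36.4%, and the GC box GGGCGG in 25 of 37 (67.6%) against 58.5%. The cell cycle homology region TTTGAA stood in 1 of 37 (2.70%) against 12.1%, in RRM1. Member promoters had a median GC content of 65.7% and 30 CpG sites, against 62.7% and 22 over all promoters. LIG1 had E2F-type letters at 3 places, 1 of them in the printed bases, and no CCAAT, whereas CDC6 had CCAAT at 3 places and no E2F-type letters of this spelling. These matches describe letters and not bound factors.

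The peak caller's fold and p-value were solved for how many DNA fragments overlap each summit, the highest point of a peak. Enrichment is that number over the library's background fragments per base, taken as the most frequent background solved from its peaks. This background ran from 0.187 in EV(245-255) to 0.634 in HA-RBN. A gene had a gene end summit when a summit lay within 1 kb of either end. In the 4 libraries with an IgG partner the listed intervals were very wide, with medians from 18225 to 83581 bp, and they covered 92.9% to 95.7% of the chromosomes. In the RBN pair the medians were 450 and 522 bp and the coverage 2.75% and 4.89%. An interval lists 1 summit, so a gene without a summit in the 4 wide lists is not a gene without signal. Each group is 1 library, so no difference between conditions can be tested. The intervals of fragments and of ratios below cover counting error only. Peak lists do not measure expression, so they give no direct check of the labelled cell type.

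In every library a larger share of the replication genes than of all genes had a gene end summit. The control siRNA library listed 24 of 41 members (58.5%, exact 95% interval 42.1 to 73.7), against 28.1% of all genes. The RB1 siRNA library listed 22 (53.7%, 37.4 to 69.3) against 33.5%. EV(245-255) listed 30 (73.2%, 57.1 to 85.8) against 45.4%, and HA-RB(245-255) listed 35 (85.4%, 70.8 to 94.4) against 45.5%. EV(RBN) listed 35 (85.4%, 70.8 to 94.4) against 60.2%, and HA-RBN listed 38 (92.7%, 80.1 to 98.5) against 73.4%. These intervals treat the 41 genes as independent draws, which a list chosen by function is not, so they give no test against all genes. The libraries also share a cell line. The members missing from the 4 wide lists numbered 17, 19, 11 and 6, and each had a listed interval within 1 kb with its summit elsewhere. In EV(RBN) 2 of 6 missing members and in HA-RBN 0 of 3 had one. At a −log10 q of at least 5 no member was listed in the first 4 libraries, 6 in EV(RBN) and 23 in HA-RBN, where 8.36% and 30.1% of all genes were. In the first 4 libraries the highest −log10 q of a member was 4.45, for LIG1 in RB1 siRNA. Most members listed in each of those 4 libraries had 0, among them LIG1 with 43 fragments and DNMT1 with 36 in EV(245-255). Of the members listed in all 6 libraries, ORC2, ORC5, RFC1, RFC3, POLA1 and RRM1 had 0 in each of those 4.

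**Figure D1:**
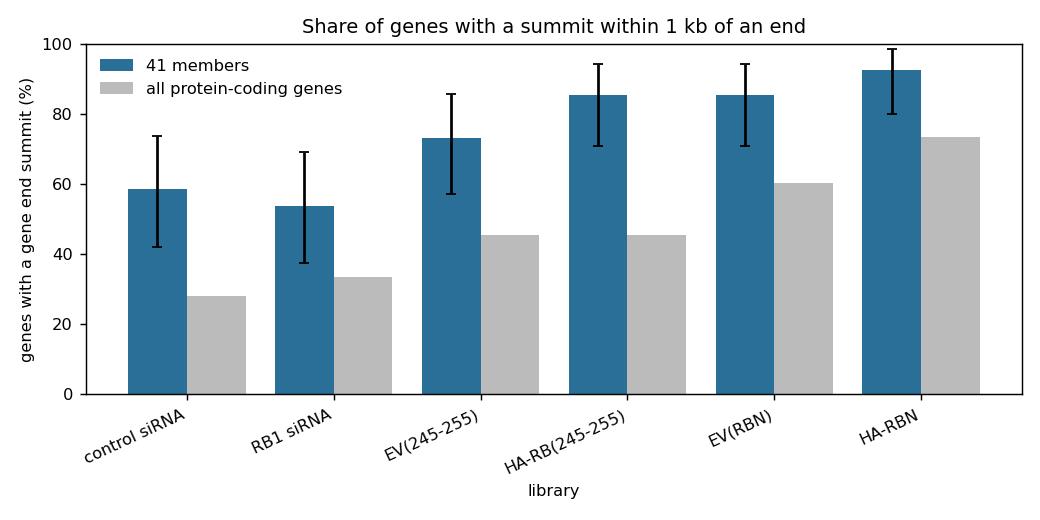
Percentage of genes with a summit within 1 kb of either end in each of the 6 libraries, for the 41 replication genes (blue, with exact 95% binomial intervals) and for all 20033 protein-coding genes (grey). The blue bars run from 53.7% to 92.7% and stand above the grey bars, which run from 28.1% to 73.4%, in each library.

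Where a summit was listed, the members had a higher median number of fragments than all listed genes. Their median was 37.5 fragments against 25 for all genes with a gene end summit in control siRNA, 44.5 against 28 in RB1 siRNA, and 15 against 12 in EV(245-255). The last 3 libraries gave 13 against 11, 6 against 5 and 18.5 against 10. The ratio of these medians was lowest in HA-RB(245-255), at 1.18, and highest in HA-RBN, at 1.85. In library order, 17 of 24, 15 of 22, 18 of 30, 22 of 35, 18 of 35 and 28 of 38 listed members exceeded the median of all. The top 10% of gene ends held 4, 2, 3, 2, 3 and 5 of them. A separate list of 34 further replication genes, which includes the MCM genes, had higher medians of 77, 81, 21, 27, 7 and 29 fragments in library order.

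**Figure D2:**
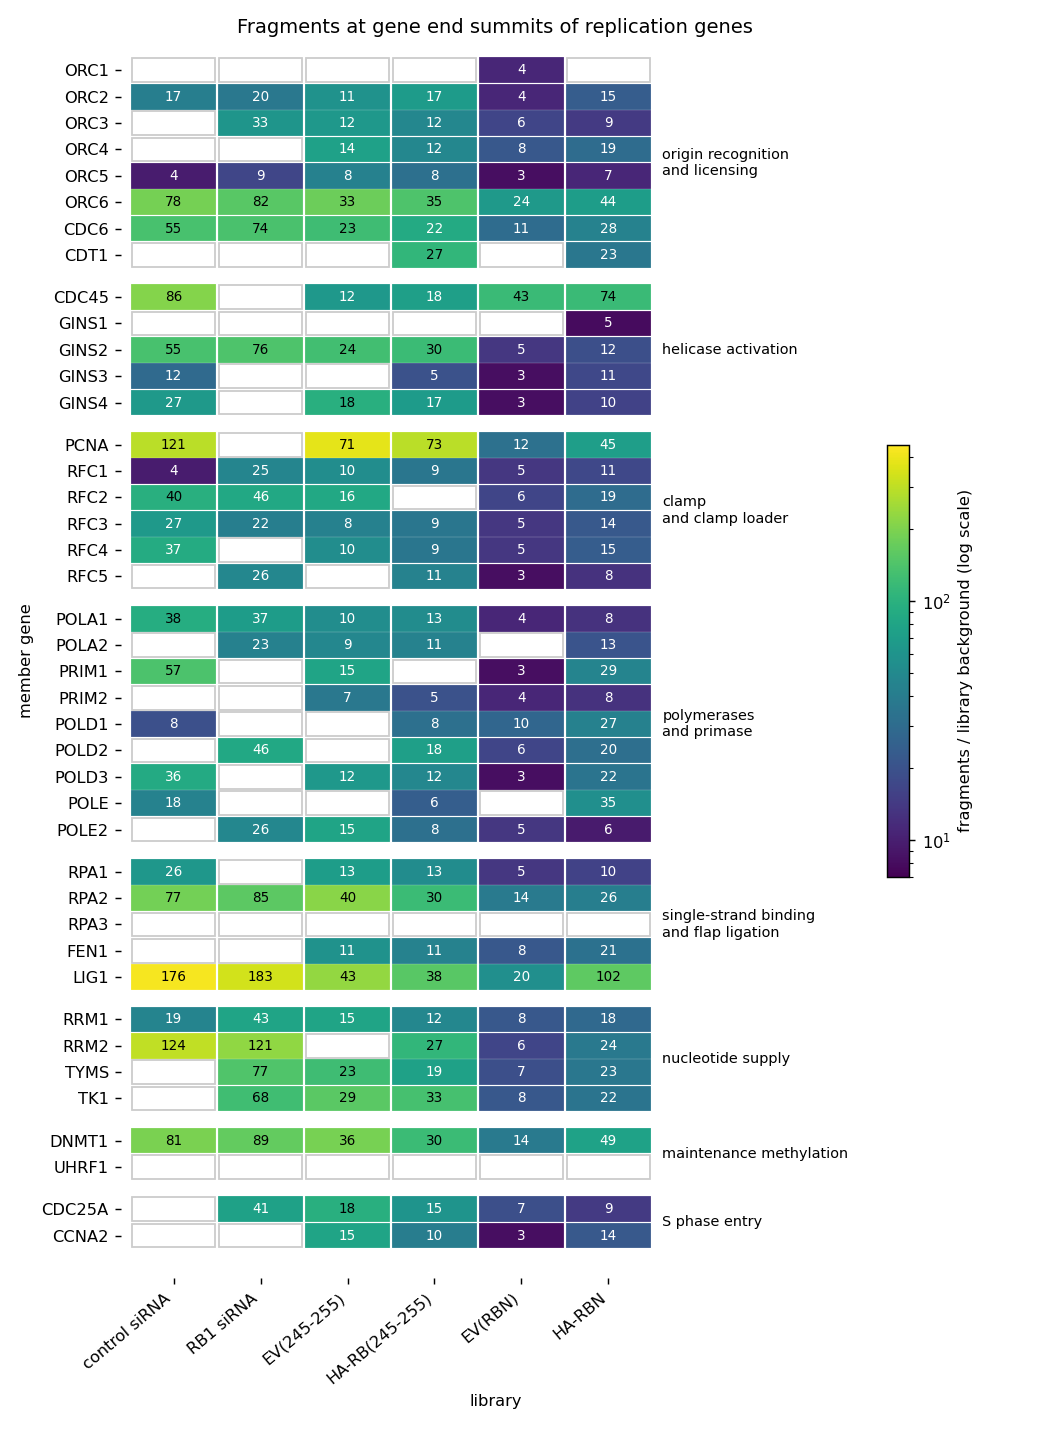
Fragments (numbers) and enrichment over the library background (colour, log scale) at the highest gene end summit of each of the 41 members, by subgroup, in the 6 libraries. Empty boxes have no summit within 1 kb. LIG1 has the highest value in both siRNA libraries, PCNA in both 245-255 libraries, CDC45 in EV(RBN) and LIG1 in HA-RBN, and the rows of RPA3 and UHRF1 are empty.

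There were 12 members with a gene end summit in all 6 libraries, which 13.1% of all genes had: ORC2, ORC5, ORC6, CDC6, GINS2, RFC1, RFC3, POLA1, RPA2, LIG1, RRM1 and DNMT1. For ORC5 and RFC1 the control siRNA summit lay at the far end of the gene, 81341 and 79802 bp from the start, with 4 fragments each. A further 13 members were listed in 5 libraries and 10 in 4, and POLE was in 3 and CDT1 in 2. ORC1 and GINS1 were in 1, and RPA3 and UHRF1 in none.

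Among the origin genes, ORC6, the smallest ORC subunit, had the most fragments in each library: 78, 82, 33, 35, 24 and 44 in library order. CDC6, which joins ORC to load the helicase, had 55, 74, 23, 22, 11 and 28, below ORC6 and above ORC2 in each library. ORC2 had 17, 20, 11, 17, 4 and 15 fragments. ORC5 was lowest of those listed throughout, with 4, 9, 8, 8, 3 and 7. The 6 ORC genes thus differed widely, although their products form 1 complex. ORC3 was listed in 5 libraries with 6 to 33 fragments, and ORC4 in 4 with 8 to 19. CDT1, the licensing factor destroyed in S phase, had 27 fragments in HA-RB(245-255) and 23 in HA-RBN, the latter 997 bp from its start and so just inside the 1 kb limit. The nearest summits just outside that limit were those of RFC5 in RB1 siRNA at 1003 bp (3 fragments) and POLE in EV(RBN) at 1006 bp (15 fragments).

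Of the helicase activators, CDC45 changed place among all gene ends between libraries. It had 86, 12, 18, 43 and 74 fragments in library order, leaving out RB1 siRNA, which listed no gene end summit for it. In EV(RBN) it ranked 57 among all gene ends, whereas 46.5% of gene ends stood above it in EV(245-255). GINS2 was listed throughout, with 55, 76, 24, 30, 5 and 12 fragments in library order. The other GINS subunits were weaker: GINS4 had 3 to 27 fragments in 5 libraries, GINS3 3 to 12 in 4, and GINS1 5 in HA-RBN alone.

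PCNA, the clamp, stood above the loader subunits wherever it was listed. It had 121, 71, 73, 12 and 45 fragments in library order, with RB1 siRNA again unlisted. Of the loader, RFC2 had 40, 46, 16, 6 and 19 fragments in control siRNA, RB1 siRNA, EV(245-255), EV(RBN) and HA-RBN. RFC3 had 27, 22, 8, 9, 5 and 14 in library order, and RFC1 had 4, 25, 10, 9, 5 and 11. RFC4 was listed in 5 libraries with 5 to 37 fragments and RFC5 in 4 with 3 to 26. No loader subunit reached the PCNA value in a library that listed both.

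The 9 polymerase and primase genes had no standing leader. PRIM1, the catalytic primase subunit, led in control siRNA with 57 fragments, POLD2 in RB1 siRNA with 46 and in HA-RB(245-255) with 18. POLE2 and PRIM1 had 15 each in EV(245-255), POLD1 had 10 in EV(RBN), and POLE, the catalytic subunit of polymerase epsilon, had 35 in HA-RBN. POLA1, which carries the polymerase alpha active site, was the member of this subgroup listed throughout, with 38, 37, 10, 13, 4 and 8 fragments in library order. HA-RBN was the library with a summit at all 9 genes. PRIM2 had 4 to 8 fragments in 4 libraries, each 92453 bp or more before its annotated start and near an end of RAB23, and none of the libraries listed a summit within 1 kb of that start. Of the rest, POLA2 had 9 to 23 and POLD3 3 to 36 in 4 and 5 libraries.

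LIG1, the ligase that seals Okazaki fragments, had the highest gene end summit of any member in 3 libraries. It had 176 fragments in control siRNA (151 to 204), 183 in RB1 siRNA (157 to 212), 43 in EV(245-255) (31.1 to 57.9) and 38 in HA-RB(245-255) (26.9 to 52.2). The EV(RBN) library gave 20 (12.2 to 30.9), and 102 were counted in HA-RBN (83.2 to 124). In control siRNA 1.74% of gene ends stood above it, and in HA-RBN 0.721% did. Its summits lay 21 to 208 bp before the start, inside the printed bases. RPA2, the middle subunit of the single-strand binding protein, had 77, 85, 40, 30, 14 and 26 fragments in library order, with summits that fell within 6 bp of one another across the 6 libraries. RPA1 had 5 to 26 fragments in 5 libraries, and FEN1, the flap nuclease, 8 to 21 in 4.

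All 4 nucleotide supply genes had a summit in RB1 siRNA, HA-RB(245-255), EV(RBN) and HA-RBN, each above the median of all gene ends there. RRM2, the S phase subunit of ribonucleotide reductase, had 124 and 121 fragments in the siRNA pair, and 27, 6 and 24 in the last 3 libraries. RRM1, the large subunit, had 19, 43, 15, 12, 8 and 18 in library order. TYMS, the thymidylate synthase, had 77, 23, 19, 7 and 23 and TK1, the S phase thymidine kinase, 68, 29, 33, 8 and 22 in the 5 libraries after control siRNA. DNMT1, which copies methylation to the new strand, had 81, 89, 36, 30, 14 and 49 in library order, while its partner UHRF1 had no gene end summit. Of the S phase entry genes, the phosphatase CDC25A had 41, 18, 15, 7 and 9 fragments in the 5 libraries after control siRNA, and CCNA2, cyclin A, 15, 10, 3 and 14 in the last 4.

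Most member summits lay at the end on the side of the start, which was also the case for 82.3% to 95.3% of all genes per library. In control siRNA 17 of 21 listed members with a known strand had theirs there, against 95.3% of all genes. Of 160 member summits at that end, 128 (80.0%) lay within 250 bp of the annotated start. The median distance of the 160 from that start was 119 bp, and 8 more summits lay at the other end of the gene. There were 104 before the start and 55 after it. Across libraries the summits spanned 79 bp for ORC3, 66 bp for POLE2 and 6 bp for RPA2, but 1041 bp for CDT1, 967 bp for GINS3, 864 bp for RRM2 and 826 bp for RFC2. All TYMS summits lay inside the gene, 492 to 643 bp after the start, and those of ORC4 lay 680 to 971 bp after it.

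**Figure D3:**
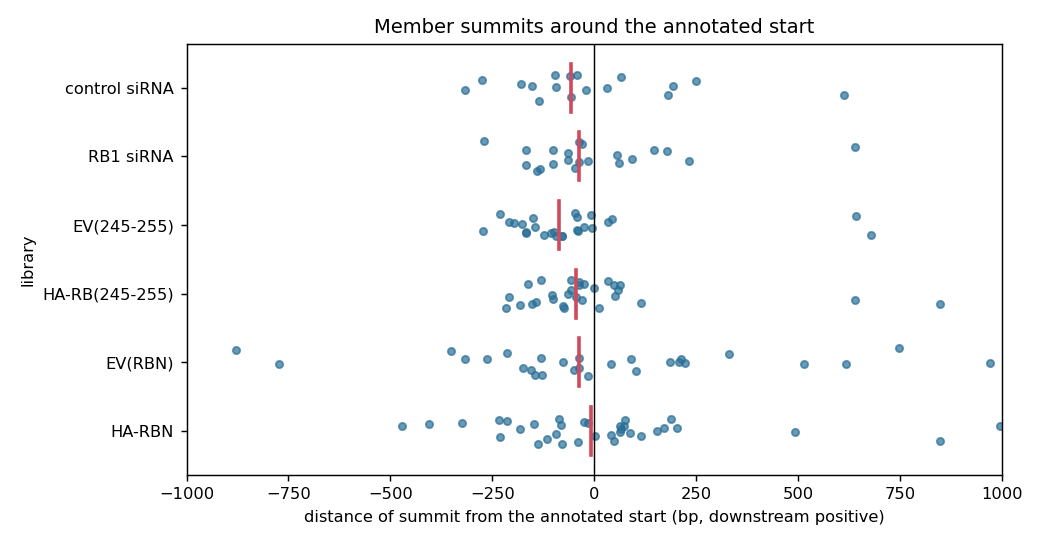
Distance of each member's highest gene end summit from the annotated start, in bp with downstream positive, for the members with a promoter sequence; points are members, spread vertically for legibility, and the red bars are medians of the points shown. The medians lie between −86.0 and −6.50 bp in the 6 libraries; 13 summits more than 1 kb from the start are not shown.

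Several genes without a gene end summit had one elsewhere in the gene. The ORC1 start lies 5080 bp inside the gene's outermost end, and there the libraries listed 53, 52, 13, 12 and 27 fragments in control siRNA, RB1 siRNA, HA-RB(245-255), EV(RBN) and HA-RBN. PRPF38A starts beside it, so that summit cannot be given to ORC1 alone. The UHRF1 start lies 6421 bp inside, with 24, 6, 6 and 18 fragments in control siRNA, EV(245-255), EV(RBN) and HA-RBN. Within 1 kb of the annotated start, members with a summit numbered 19, 22, 27, 30, 32 and 36 of 37 in library order, against 28.4%, 34.0%, 43.7%, 44.0%, 53.7% and 68.2% of all genes with a start. RPA3, the smallest subunit of the single-strand binding protein, had a summit in all 6 libraries at chr7:7640563-7640673, at least 4045 bp inside the gene and near an end of UMAD1, with 70, 100, 51, 44, 8 and 29 fragments.

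PCNA had a further summit inside the gene in all 6 libraries, at chr20:5119479-5119988 and 6634 to 7143 bp from its start. It had 297, 251, 37, 77, 32 and 177 fragments in library order, more than any member's gene end summit in both siRNA libraries, HA-RB(245-255) and HA-RBN. It exceeded the PCNA start summit in 4 of the 5 libraries with both, EV(245-255) being the exception. In RB1 siRNA the interval over PCNA gave this summit and none at the start, so PCNA appears there as unlisted. POLE likewise had a summit 2701 to 2960 bp inside its start in the 5 libraries after control siRNA, with 119, 52, 64, 27 and 81 fragments, above its end summit in both libraries that listed one. POLE2 had an inner summit in the same 5 libraries, 27919 to 28213 bp from its start. Its inner summit had 24, 17, 17, 8 and 11 fragments, above the end summit in 4 of the 5. PRIM2 also had an inner summit in those 5, with 4 to 10 fragments.

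For each pair, gene ends with a summit in both libraries no more than 0.5 kb apart were compared. The relative log2 ratio is the enrichment of the condition over its control, on the log2 scale, minus the median of all such shared gene ends. A gene end was called when it lay more than 1 log2 unit from that median. The summit matched between libraries can be lower than the highest one given above, and can lie at the other end of the gene. RFC4 in the RBN pair was matched at the end away from its start, with 2 and 4 fragments.

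In the siRNA pair the replication genes lay near the usual gene end; peak lists cannot check how far RB1 itself was knocked down. Of 3804 genes with a shared gene end 12 were members, with a median of −0.12, 3 above the median of all and 9 below, and none called, against 1.66% of all called above and 0.815% called below. Summed over the 12, fragments went from 787 to 878, a relative log2 ratio of −0.11 (95% interval −0.25 to 0.04), where the SD over all shared gene ends was 0.42. RRM1 was the member whose counting interval lay above 0, with 19 fragments in control siRNA and 43 in RB1 siRNA (0.92, 0.11 to 1.78), where 2.58% of all did. The RRM1 summits lay 381 bp apart and no longer matched at 0.25 kb. None lay below 0, against 3.73% of all.

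The other 11 members had ratios from −0.56 to 0.20. LIG1 had 176 and 183 fragments (−0.21, −0.51 to 0.10) and RRM2 124 and 121 (−0.30, −0.67 to 0.07). ORC6 had 78 and 82 (−0.19), RPA2 77 and 85 (−0.12), DNMT1 81 and 89 (−0.13) and RFC2 40 and 46 (−0.06). RFC3, at 27 and 22, was lowest (−0.56, −1.44 to 0.31), and POLA1 had 38 and 37 (−0.30). CDC6 (0.17) and GINS2 (0.20) were highest after RRM1, with ORC2 at −0.03. In terms of listing, 14 members were listed in both libraries, 8 in RB1 siRNA alone, 10 in control siRNA alone and 9 in neither. Of all genes 19.9% were listed in both, 13.6% in RB1 siRNA alone and 8.17% in control siRNA alone, and each unlisted member lay near a wide interval with its summit elsewhere.

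In the 245-255 pair these genes also lay near the usual gene end. Of 5477 shared gene ends 28 were members, with a median of −0.03, 9 above, 14 below and 5 at the median. None was called, against 2.34% of all above and 3.09% below, and no interval lay off 0, against 1.41% above and 2.01% below. Summed fragments went from 550 to 531 (−0.05, −0.23 to 0.12). Without centring, the median was −0.45 and 2 of 28 were above 0, since the median of all shared gene ends was −0.42.

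PCNA gave the narrowest interval, with 71 fragments in EV(245-255) and 73 in HA-RB(245-255) (0.04, −0.45 to 0.53). LIG1 had 43 and 38 (−0.18, −0.85 to 0.49), DNMT1 36 and 30 (−0.26) and CDC6 23 and 22 (−0.06). The highest were ORC2 with 11 and 17 (0.63, −0.55 to 1.87), CDC45 with 12 and 18 (0.58), POLA1 (0.38), GINS2 (0.32), POLA2 (0.29) and TK1 (0.19). The lowest were POLE2 with 15 and 8 (−0.91, −2.35 to 0.42), CCNA2 with 15 and 10 (−0.58), PRIM2 (−0.49), RPA2 with 40 and 30 (−0.42, −1.15 to 0.30), RRM1 (−0.32) and TYMS (−0.28). Differences smaller than these intervals were not detectable at this depth. There were 7 members listed in HA-RB(245-255) alone (CDT1, GINS3, RFC5, POLD1, POLD2, POLE and RRM2) and 2 in EV(245-255) alone (RFC2 and PRIM1), beside 14.2% and 14.1% of all genes. The HA-RB(245-255) summits of POLD1 (8 fragments) and POLE (6 fragments) lay at the far end of the gene. They were 33039 and 64363 bp from the start.

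In the RBN pair the member median lay close to that of all genes, and few members were called in either direction. Of 8664 shared gene ends 30 were members, with a median of 0.05, 16 above and 14 below, where the SD over all was 0.65. There were 3 called above, against 4.37% of all, and 1 called below, against 6.59%. The interval lay above 0 for PRIM1 and LIG1, against 2.54% of all, and below 0 for none, against 0.796%. Summed fragments went from 258 to 710 (0.14, −0.07 to 0.35). This split rests on the centring: the median of all shared gene ends was 0.53, and with no centring the member median was 0.58 with 26 of 30 above 0, or 0.69 with 27 of 30 when all shared summits were the centre.

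PRIM1 had 3 fragments in EV(RBN) and 29 in HA-RBN (1.95, 0.26 to 4.31). LIG1 had 20 and 102 (1.03, 0.33 to 1.80), the largest fragment numbers among the members called. POLD3, the accessory subunit of polymerase delta, had 3 and 22 (1.55, −0.18 to 3.94). LIG1 lost its call, at 0.97 and 0.88, when only gene ends with at least 10 or 20 fragments were used, and stayed above 0. RRM2 followed with 5 and 24 (0.94, −0.48 to 2.69), CCNA2 with 3 and 14 (0.90) and PCNA with 12 and 45 (0.58, −0.36 to 1.64). At the low end, POLE2 had 5 and 6 (−1.06, −3.03 to 0.99), a call that was lost at −0.53 with no centring. CDC25A had 7 and 9 (−0.96) and ORC3 6 and 9 (−0.74). CDC45 had 43 and 74 (−0.54, −1.10 to 0.04), with the same enrichment of 117 in both libraries. The ORC6 summit had 24 and 44 (−0.45) and RPA2 14 and 26 (−0.43). DNMT1 had 14 and 49 (0.49) and CDC6 11 and 28 (0.03).

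CDT1, GINS1, POLA2 and POLE were listed in HA-RBN alone and ORC1 in EV(RBN) alone, 4 and 1 of 41, where 20.4% and 7.21% of all genes were. These listings follow the 1 kb rule for gene ends. The ORC1 summit in EV(RBN) had 4 fragments and lay 4670 bp before its start. At the start both libraries listed ORC1, with 12 and 27 fragments (−0.15, −1.18 to 0.96). POLE had its inner summit in both, with 27 and 81 fragments. The nucleotide supply genes had 3 of 4 above the median of all, with a median of 0.27, and the origin genes 2 of 6, with a median of −0.09. The subgroups overlapped, and the ranges of the polymerases (−1.06 to 1.95) spanned those of the others.

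**Figure D4:**
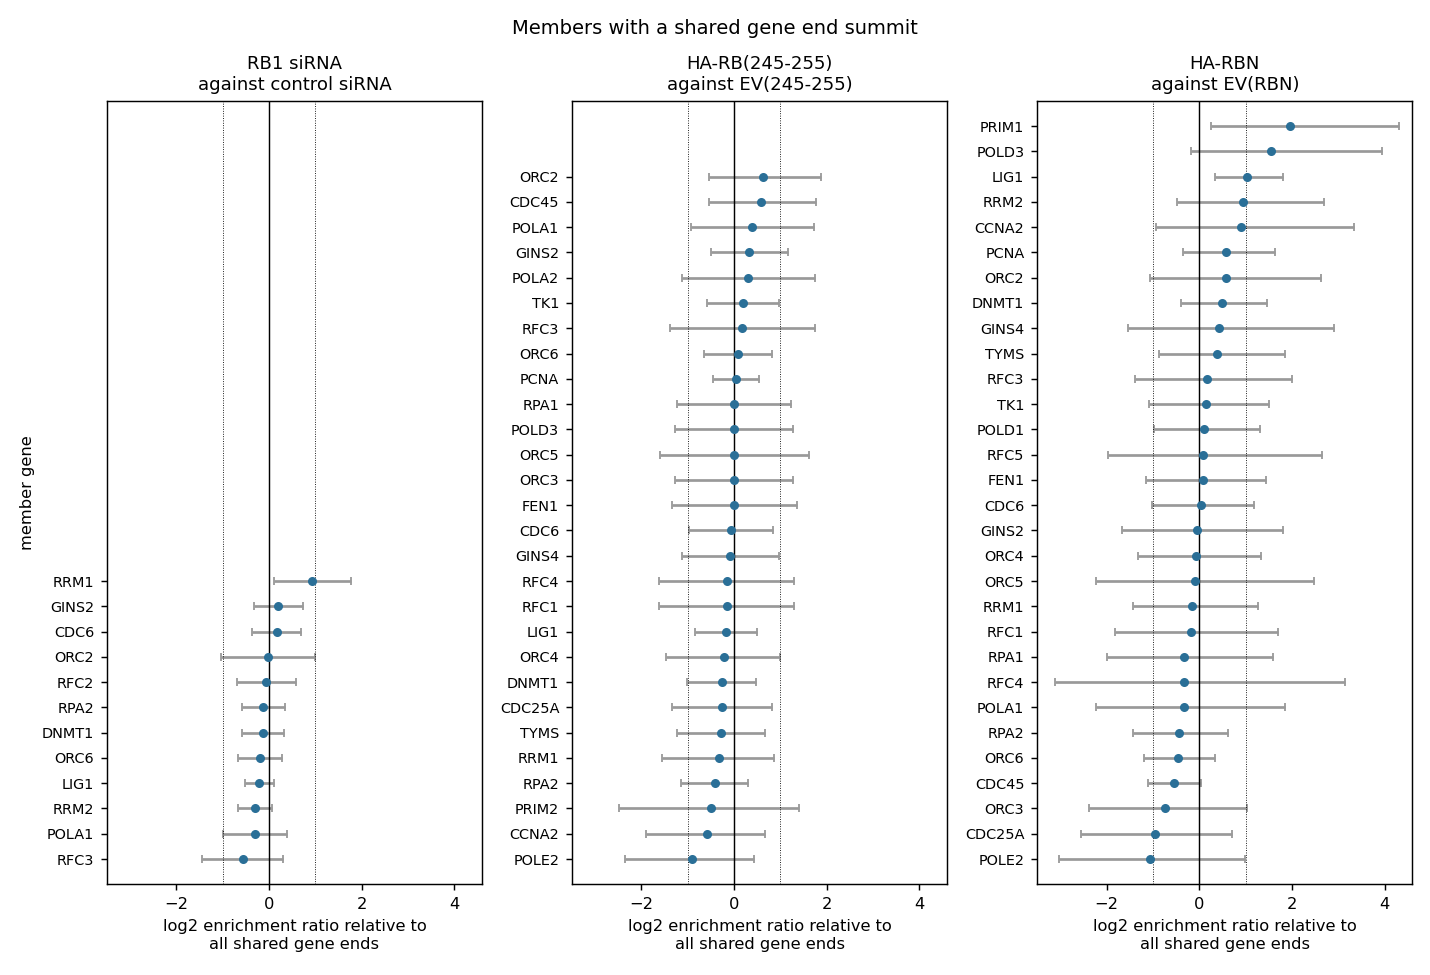
Relative log2 enrichment ratio of each member with a shared gene end summit in the siRNA pair (12 members), the 245-255 pair (28) and the RBN pair (30), with exact 95% counting intervals; 0 is the median over every shared gene end, and dotted lines mark 1 log2 unit. Intervals that exclude 0 belong to RRM1 in the siRNA pair and to PRIM1 and LIG1 in the RBN pair.

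The further replication genes gave medians of −0.15 over 16 shared genes in the siRNA pair, 0.11 over 21 in the 245-255 pair and 0.58 over 27 in the RBN pair. In the siRNA pair the interval lay below 0 for MCM7, CLSPN and RRM2B, beside 3.73% of all shared gene ends. In the 245-255 pair POLE4 was called above, with 3 and 19 fragments, beside 2.34% of all. In the RBN pair 8 of these 27 were called above, beside 4.37% of all shared gene ends. The interval lay above 0 for MCM3, MCM7, GMNN and POLE4 and included 0 for the other called genes. Of these, MCM3, GMNN and POLE4 rest on 5, 7 and 4 fragments in EV(RBN). MCM7, a helicase subunit, had 25 fragments in EV(RBN) and 173 in HA-RBN (1.47, 0.86 to 2.14). The difference between the lists was not tested.

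There were 10 members shared in all 3 pairs: CDC6, DNMT1, GINS2, LIG1, ORC2, ORC6, POLA1, RFC3, RPA2 and RRM1. RPA2 was below the median of all in each pair, at −0.12, −0.42 and −0.43, each with an interval that included 0, and no member was above it in each. LIG1 had −0.21, −0.18 and 1.03. The order of members by fragments was related across libraries, to a degree that varied. Spearman correlations ran from 0.57 to 0.96 over 14 to 35 members in 15 pairs of libraries, against 0.62 to 0.93 over all genes. These libraries share a cell line and the same reference positions. For 15 members another protein-coding gene ends within 1 kb of a summit, among them VPS35 at ORC6, UFD1 at CDC45, CDS2 at PCNA, ZSWIM9 at LIG1, AFMID at TK1 and TMEM258 at FEN1. The part of those neighbours in the values was not tested.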

How the data were processed

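The peak caller MACS2 2.1.0 is named in the submitters' processing notes beside Bowtie 1.1.2, Trimmomatic 0.33, bcl2fastq 2.17 and build hg38, with no role given. The deposited lists, 1 per library and without a header, follow the narrowPeak layout without its name column. They give the authors' fold enrichment (a ratio over local background), −log10 p-value and −log10 q-value per peak, and the authors' offset of the summit from the peak start. The smallest −log10 p-value per list was 1.30 to 1.31. Read totals, settings and the use of controls: not given in the sources used here. Depth is therefore known only through the background fragments per base.

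The fold and the Poisson p-value were solved together for fragments at each summit; the solver was tested on simulated data. In the lists with an IgG partner, pileups came in steps of 0.0166, 0.0176, 0.0434 and 0.0512, taken as 1 scaled fragment. Python 3.11.15, numpy 2.4.6, pandas 2.3.3, scipy 1.17.1 and matplotlib 3.10.9 were used. Gene positions, promoters and starts came from RefSeq GRCh38.p14. GINS4, POLD3, RPA2 and RPA3 have no promoter sequence there. Intervals are exact: Clopper-Pearson for shares, Poisson for fragments, conditional binomial for ratios.

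The members and lists were chosen with earlier results of these data known. Named were PCNA, RRM2, CDC6, ORC1 and DNMT1, members listed in 6, 1 or 0 libraries, and per pair the 6 highest and 6 lowest members and those whose interval excludes 0. Others were named after their values were seen. Other windows, matching distances, fragment minimums, a q-value minimum, other centring, starts and leaving out neighboured members were tried. A marker list of the cell type is not reported here.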

Additional observations from a re-analysis of the deposited data

How the results depend on the processing

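No paired analysis was possible because each group is 1 library. Of 36 alternative counts of members with a gene end summit, 30 stayed within 1.5 times the value reported. The 6 that did not came from requiring a −log10 q of at least 5, which left 0, 0, 0, 0, 6 and 23 members in library order, beside 0.404%, 0.200%, 0.215%, 0.369%, 8.36% and 30.1% of all genes. Of 27 pair medians 24 moved by less than the 95% counting error of the summed fragments. In the 245-255 pair the median with no centring was −0.45. In the RBN pair it was 0.69 when centred on all shared summits and 0.58 with no centring. Of 27 counts of members above the median, 21 were within 1.5 times. In the 245-255 pair the count became 2 of 28 with no centring and 5 of 16 without members that have a neighbouring gene end. In the RBN pair it became 7 of 16 with at least 20 fragments, 10 of 18 without neighboured members, 27 of 30 centred on all shared summits and 26 of 30 with no centring. The smaller counts have fewer members. Of 566 values of single members, 565 stayed within their counting interval; CDC45 in the RBN pair became 0.11 centred on all shared summits. No called value changed sign. Summits around the annotated start were added as an alternative after the data were seen. Low fragment numbers limit the RBN pair, where PRIM1 and POLD3 rest on 3 fragments in EV(RBN).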
